A study of Mus musculus with 2 samples.

Results

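T cell receptor V segments are the gene pieces that encode most of the variable part of the receptor's alpha, beta, gamma and delta chains. Of the 31053 features in the files, 170 have a symbol that begins with Trav, Trbv, Trgv or Trdv, and these were taken as the members. They comprise 128 Trav, 35 Trbv, 1 Trgv and 6 Trdv symbols. The annotation GENCODE M21 on GRCm38, the assembly that mm10 stands for, lists 136 of the 170 as V genes and 34 as V pseudogenes. The files name 6 further gamma V segments Tcrg-V1 and Tcrg-V3 to Tcrg-V7. These were added once the files had been read, and are given beside the members but not counted among them.

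The samples were 2 libraries of mouse mammary tumours, 1 from the PyMT-M tumour cell line and 1 from PyMT-N. Cells of each line had been placed in the mammary gland, and tumours were collected 4 weeks later at a diameter of 0.7 to 1 cm. Viable immune cells, positive for CD45 and negative for DAPI, were sorted from the dissociated tumours and sequenced with the 10x Genomics 5′ single-cell assay. The labels give no other treatment for either line, and the mouse strain and the number of tumours per library are not given in the sources used here. With 1 library for each line no test between the tumours can be made, and every interval below is an exact 95% interval that covers counting error only. Counts are unique molecular identifiers (UMIs), each standing for a captured RNA molecule.

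During T cell development each alpha and gamma chain is assembled by joining a V to a J segment, and each beta and delta chain by joining V, D and J segments. The assembled V segment is then transcribed with the constant gene, so a T cell usually holds RNA of a single functional beta V segment and of an alpha V segment paired with it. Cells that descend from the same T cell share both. Different T cells can also share V segments, and the junctions that would tell them apart are not part of a gene count table. In mice most T cells of secondary lymphoid organs carry alpha-beta receptors, and gamma-delta T cells are a minority found mainly in skin, gut and other barrier tissues. Rearranged gamma genes can also be transcribed in alpha-beta T cells.

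The V exons of the segments that lead the results are shown here, with the related alpha segments Trav13d-1 and Trav13n-1. They come from GENCODE M21 transcripts on GRCm38, 5′ to 3′, coding bases of exon 2 only, and all 5 lie on the plus strand. The beta segments Trbv1 (chr6:40891591-40891885) and Trbv13-1 (chr6:41116178-41116468) are on chromosome 6, and every window of 90 bases in their transcripts was found under no other symbol. The alpha segment Trav13-1 (chr14:53545247-53545525) is on chromosome 14 in a locus with large duplicated blocks, whose copies carry d or n in their names. Capitals in Trav13d-1 (chr14:52851588-52851866) and Trav13n-1 (chr14:53162632-53162910) mark the bases that differ from Trav13-1.
Trbv1: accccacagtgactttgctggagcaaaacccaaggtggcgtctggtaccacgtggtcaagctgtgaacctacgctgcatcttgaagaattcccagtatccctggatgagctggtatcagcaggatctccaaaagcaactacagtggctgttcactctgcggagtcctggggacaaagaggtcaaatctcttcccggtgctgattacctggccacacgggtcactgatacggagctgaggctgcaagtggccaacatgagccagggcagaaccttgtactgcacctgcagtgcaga
Trbv13-1: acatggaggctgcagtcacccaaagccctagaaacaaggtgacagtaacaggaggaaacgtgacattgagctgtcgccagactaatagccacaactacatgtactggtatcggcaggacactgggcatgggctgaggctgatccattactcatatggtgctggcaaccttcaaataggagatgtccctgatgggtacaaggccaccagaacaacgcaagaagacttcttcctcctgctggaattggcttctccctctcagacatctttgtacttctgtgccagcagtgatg
Trav13-1: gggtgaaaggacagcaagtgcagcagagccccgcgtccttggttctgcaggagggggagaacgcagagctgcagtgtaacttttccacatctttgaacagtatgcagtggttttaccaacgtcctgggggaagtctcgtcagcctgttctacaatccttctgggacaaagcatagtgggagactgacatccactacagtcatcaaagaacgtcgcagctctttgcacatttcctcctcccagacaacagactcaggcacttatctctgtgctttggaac
Trav13d-1: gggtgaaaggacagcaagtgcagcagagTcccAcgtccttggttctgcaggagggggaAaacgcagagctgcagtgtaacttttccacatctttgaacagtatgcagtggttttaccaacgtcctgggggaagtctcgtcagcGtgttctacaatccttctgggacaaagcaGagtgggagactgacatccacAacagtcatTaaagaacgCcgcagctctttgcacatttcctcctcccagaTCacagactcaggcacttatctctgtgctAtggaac
Trav13n-1: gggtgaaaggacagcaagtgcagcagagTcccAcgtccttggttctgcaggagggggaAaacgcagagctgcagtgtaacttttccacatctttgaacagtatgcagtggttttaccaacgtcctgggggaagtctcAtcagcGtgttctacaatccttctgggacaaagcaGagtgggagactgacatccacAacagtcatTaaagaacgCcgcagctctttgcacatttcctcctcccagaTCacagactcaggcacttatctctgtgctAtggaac

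Over these 279 bases Trav13-1 differed from Trav13d-1 at 11 positions and from Trav13n-1 at 12. Trav13d-1 and Trav13n-1 differed at 1 position. Of the 242 windows of 90 bases in the Trav13-1 transcript, 209 (86.4%) were found under no other symbol. The rest were shared with Trav13d-2 or Trav13n-2, which are not printed here, and none with Trav13d-1 or Trav13n-1. Unique windows made up 36.8% in Trav13d-1 and 37.2% in Trav13n-1, which share windows with each other. A shorter read over a stretch with few capitals can separate Trav13-1 from its copies only partly.

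T cells were cells with at least 1 UMI of Cd3d, Cd3e and Cd3g together and under 10 UMIs of C1qa, C1qb and C1qc per 10000. This gave 738 of 6917 kept cells in PyMT-M and 200 of 4793 in PyMT-N. The libraries had 60 barcode sequences in common. Median depth per T cell was 4604 UMIs in the first library and 2959 in the second. Cells with more Trdc UMIs than Trac, Trbc1 and Trbc2 together were called gamma-delta, and the rest were divided by Cd8a or Cd8b1 and Cd4.

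PyMT-M held 360 CD8 cells (48.8% of T cells, 45.1 to 52.5), 28 CD4 cells (3.79%) and 19 gamma-delta cells (2.57%). PyMT-N held 33 CD8 cells (16.5%, 11.6 to 22.4), 32 CD4 cells (16%) and 9 gamma-delta cells (4.5%). A further 328 cells of PyMT-M and 125 of PyMT-N had neither co-receptor, and 3 cells and 1 cell had both. The class without a co-receptor is mixed. A UMI of Trac, Trbc1 or Trbc2 was present in 264 of the 328 cells (80.5%) and 98 of the 125 (78.4%). Cd4 had 40 UMIs in the 28 CD4 cells of PyMT-M and 38 in the 32 of PyMT-N. The CD4 shares count only cells in which Cd4 was read, and CD4 cells with no Cd4 UMI would fall in this class. How many it holds was not tested. In PyMT-M, 237 of its 328 cells carried a UMI of the natural killer list (Ncr1, Klrb1c, Klra8, Klre1 and Eomes), against 14 of 125 in PyMT-N. The neutrophil list had a UMI in 16 of the 328 (284 CPM, counts per 1000000 UMIs of the group) and in 38 of the 125 (30.4%, 6742 CPM). Their part in that class's V segment counts was not tested, and the results below centre on CD8 and CD4 cells.

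V segment RNA was detected for 98 of the 170 members in the T cells of either tumour, 92 of the 136 V genes and 6 of the 34 pseudogenes. PyMT-M T cells held 6955 such UMIs over 93 members and PyMT-N T cells 789 over 73. Of the 22 beta V genes 21 had a UMI, and of the 108 alpha V genes 66 did. Of the delta V genes 4 of 5 had a UMI, and Trgv2 alone held 1599 UMIs.

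Beta segments were the better read chain. A Trbv UMI was present in 342 of 360 CD8 cells of PyMT-M (95%, 92.2 to 97.0) and in 27 of 33 of PyMT-N (81.8%, 64.5 to 93.0). Among CD4 cells it was present in 24 of 28 (85.7%) and 21 of 32 (65.6%). After each cell had been thinned to 1000 UMIs, the CD8 shares were 73.4% and 45.5%, and the CD4 shares 53.6% and 40.6%. Cells that should lack the receptor were far lower. Cells rich in C1q transcripts with no Cd3 UMI, which are macrophage-type cells, held a Trbv UMI in 0.646% of 5109 PyMT-M cells and 0.858% of 699 PyMT-N cells, at median depths of 4929 and 4552 UMIs.

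Alpha segments were found less often at the same depth. A Trav UMI was present in 191 of 360 CD8 cells of PyMT-M (53.1%, 47.8 to 58.3) and 16 of 33 of PyMT-N (48.5%, 30.8 to 66.5), and in 18 of 28 and 17 of 32 CD4 cells. The alpha counts were spread unevenly over the symbols. Of the 128 Trav symbols, 40 had no window of 90 bases that is absent from all other transcript symbols, and these 40 together held 1 UMI. Another 21 symbols with unique windows under 50% held 106 UMIs, of which PyMT-M gave 90 and PyMT-N 16. The 44 symbols above that share but under 100% held 952 and 146 UMIs, and the 23 wholly unique ones 182 and 20. Whether reads shared between copies were dropped is not stated in the sources used here, so a Trav count of 0 is no sign that the segment was unused.

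**Figure D1:**
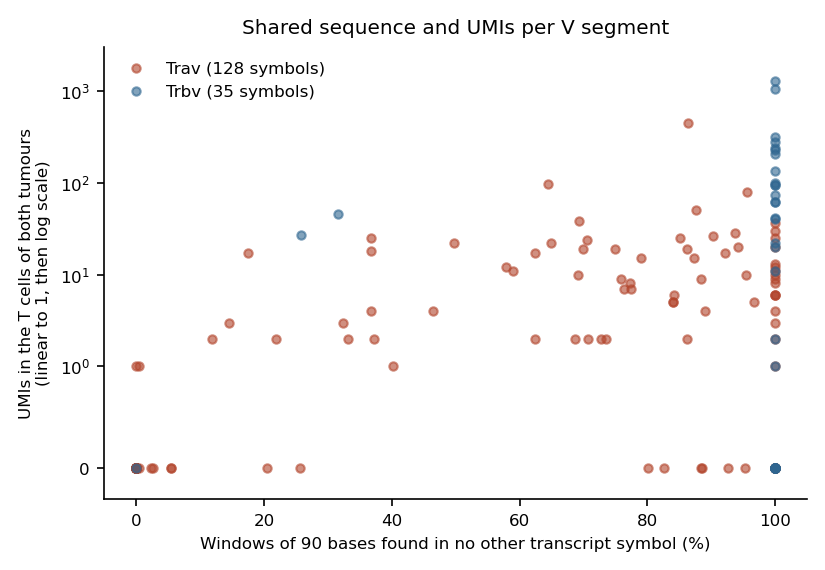
Each point is a Trav or Trbv symbol: the share of its 90-base transcript windows found under no other symbol (x axis, %) against its UMIs in the T cells of both tumours (y axis, linear to 1 and logarithmic above). The 40 Trav symbols at 0% hold 1 UMI in all, whereas 32 of the 35 Trbv symbols lie at 100%.

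Where a chain had enough UMIs, most CD8 cells of PyMT-M read a single beta or a single alpha segment. Among PyMT-M CD8 cells with at least 3 Trbv UMIs, 254 of 301 (84.4%, 79.8 to 88.3) had them all in 1 segment, and the median cell with any Trbv held 7 UMIs. With at least 3 Trav UMIs it was 94 of 116 (81.0%, 72.7 to 87.7), while 169 of the 360 cells had no Trav UMI. A second Trbv segment with at least 2 UMIs was seen in 15 of the 321 cells that had any Trbv segment at 2 or more UMIs (4.67%, 2.64 to 7.59), and a second Trav segment, by the same measure, in 13 of 148 (8.78%, 4.76 to 14.6). In PyMT-N CD8 cells the counts were 0 of 22 for Trbv and 1 of 4 for Trav. CD4 cells had none for Trbv, at 0 of 19 in PyMT-M and 0 of 17 in PyMT-N. Gamma segments were read differently: among PyMT-M CD8 cells with at least 3 gamma V UMIs, only 64 of 216 (29.6%, 23.6 to 36.2) had them all in 1 segment. A second gamma segment with at least 2 UMIs was seen in 94 of 239 (39.3%, 33.1 to 45.8). In what follows, each cell is assigned the segment with the most UMIs, and cells with a tie are left unassigned.

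CD8 T cells of PyMT-M were dominated by 2 beta segments. Trbv13-1 led in 116 of 340 assigned cells (34.1%, 29.1 to 39.4) and Trbv1 in 105 (30.9%, 26.0 to 36.1). The next segments were Trbv13-2 and Trbv3 with 17 cells each, Trbv12-2 and Trbv16 with 16 each and Trbv19 with 10, out of 17 distinct segments. In PyMT-N, Trbv13-1 led in 0 of 27 assigned CD8 cells, which allows a share of up to 11.1% by a limit of 3 cells and 12.8% by the exact interval, and Trbv1 in 2 (7.41%, 0.91 to 24.3). The intervals of both segments do not overlap, but they cover counting error only. Both segments were named because they led, and cells of 1 library are not replicates of a tumour.

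CD8 cells of PyMT-N were spread more evenly, over 12 segments. Trbv12-1 and Trbv12-2 led in 4 cells each (14.8%, 4.19 to 33.7), Trbv13-3, Trbv16 and Trbv19 in 3 each (11.1%) and Trbv15 and Trbv20 in 2 each. Trbv12-1 led in only 2 of the 340 PyMT-M cells (0.588%, 0.0713 to 2.11) and Trbv13-3 in 1 (0.294%, 0.00745 to 1.63). Of these PyMT-N CD8 cells, 24.2% carried a UMI of the neutrophil list, whose summed level was 1875 CPM against 11.2 CPM in PyMT-M CD8 cells. Without the cells rich in S100a8 and S100a9, 31 CD8 cells were left and Trbv13-1 led in 0 of 25 assigned cells. Expressed as pairs of cells, 22.2% of all pairs of assigned CD8 cells shared their beta segment in PyMT-M and 6.84% in PyMT-N.

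CD4 cells showed no leading segment of that size in either tumour. In PyMT-M, 23 assigned cells used 13 segments, with Trbv3 in 5 cells (21.7%, 7.46 to 43.7). In PyMT-N, 21 assigned cells used 12 segments, and Trbv3, Trbv13-2, Trbv13-3 and Trbv26 led in 3 cells each (14.3%, 3.05 to 36.3). Pairs of CD4 cells shared a beta segment in 6.32% and 6.19% of cases. Trbv13-1 led in 2 CD4 cells of PyMT-M and Trbv1 in 1, with upper bounds of 28.0% and 21.9%. Foxp3, which marks regulatory T cells, had a UMI in 2 CD4 cells of PyMT-M and 7 of PyMT-N. The 2 and 3 of them with an assigned beta segment all used different ones.

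Cells with neither co-receptor also lacked the CD8 pattern. Of 129 assigned PyMT-M cells, Trbv13-2 led in 20 (15.5%), Trbv13-3 in 13, Trbv1 in 9 (6.98%) and Trbv13-1 in 8 (6.20%). Of 67 assigned PyMT-N cells, Trbv3 led in 11 (16.4%), Trbv13-2 in 9 and Trbv1 in 8. Outside the T cell rule, Trbv13-1 had a UMI in 14 of 6179 kept PyMT-M cells and Trbv1 in 24.

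**Figure D2:**
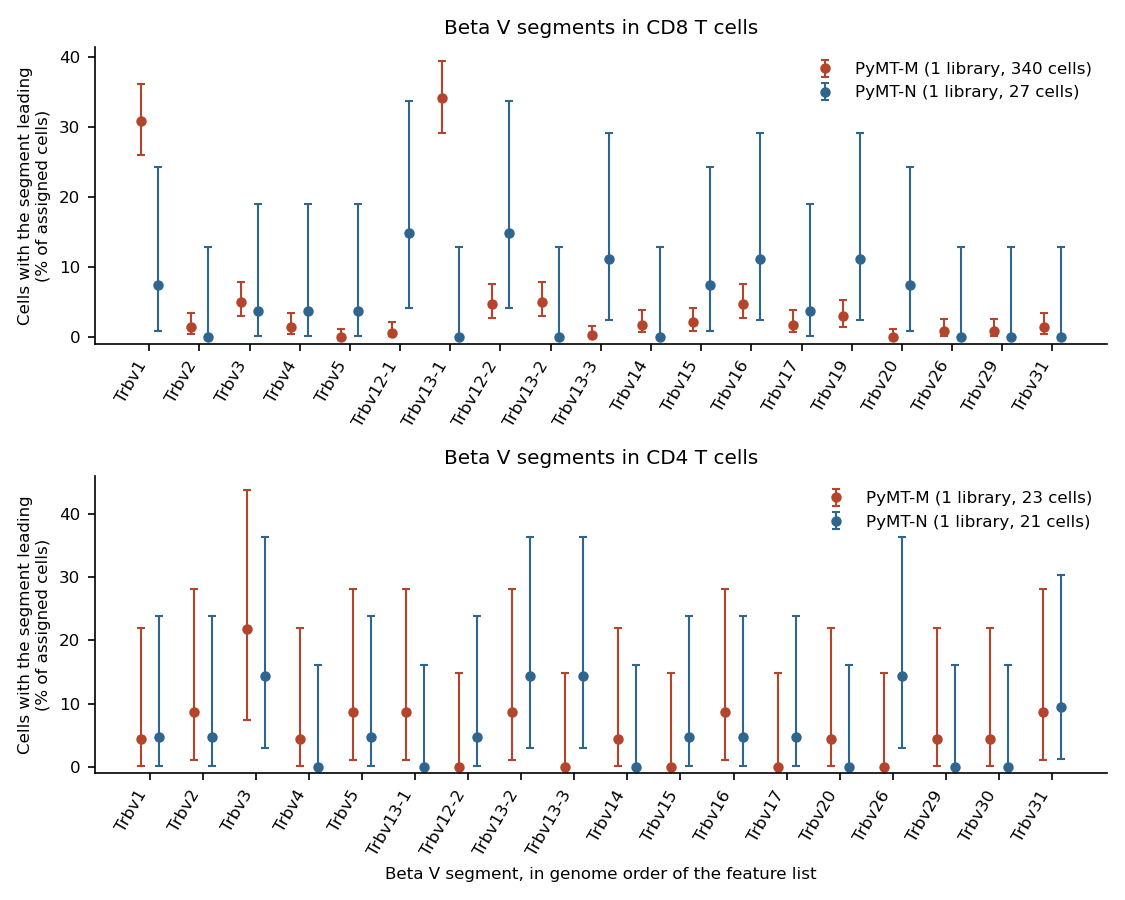
Share of assigned CD8 cells (top) and CD4 cells (bottom) in which each beta V segment has the most UMIs (%), for PyMT-M (red) and PyMT-N (blue), with exact 95% intervals. Trbv13-1 at 34.1% and Trbv1 at 30.9% stand apart in PyMT-M CD8 cells, and no CD4 segment does so beyond its interval.

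Summed UMIs were also highest for Trbv13-1 and Trbv1 among the beta segments of PyMT-M CD8 cells, whereas below them the order differed from that by cells. Trbv15, for example, had 118 UMIs and led in 7 cells, and Trbv13-2 had 111 UMIs and led in 17. In CD8 cells Trbv13-1 had 1178 UMIs in PyMT-M (657 CPM) and 0 in PyMT-N. Its ratio was 37.9 when the 0 is set to a floor of 3 UMIs over the group, with a lower log2 bound of 4.94. Trbv1 had 802 UMIs (447 CPM) and 9 (52.1 CPM), 8.59-fold higher. Trav13-1 had 440 UMIs (245 CPM) and 3 (17.4 CPM), a ratio of 14.1 with a log2 interval from 2.27 to 6.11. Trgv2 had 1186 UMIs (662 CPM) and 25 (145 CPM), 4.57-fold higher in PyMT-M. In the other direction, Trbv12-1 had 18 UMIs (10.0 CPM) and 21 (122 CPM), and Trbv19 had 51 (28.5 CPM) and 23 (133 CPM).

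Of the 20 members with at least 20 UMIs over both CD8 groups, 9 had a PyMT-M level at least 2 times that of PyMT-N, and 5 the reverse. Over all 6951 features tested, 19.4% and 5.44% passed these thresholds. Median log2 ratios of PyMT-M to PyMT-N were -0.14 for the members and 0.18 for all features. In CD4 cells only Trbv3 had enough UMIs, with 45 in PyMT-M (392 CPM) and 11 in PyMT-N (97.7 CPM), 4.01-fold higher. Its PyMT-M UMIs alone met the minimum of 20, which favours a ratio in that direction. By cells, Trbv3 led in 5 of 23 in PyMT-M and 3 of 21 in PyMT-N, with overlapping intervals. Over all features tested in CD4 cells, 10.9% passed the 2-fold threshold toward PyMT-M and 5.54% toward PyMT-N. UMIs of 1 cell are not independent of each other, and a single cell can hold up to 76 Trbv UMIs, so these ratios weigh deep cells more than the cell counts do.

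The 2 leading beta segments of PyMT-M differed sharply in their alpha partners. Of the 105 Trbv1 cells, 98 had an assigned Trav segment, and in 95 of these (96.9%, 91.3 to 99.4) it was Trav13-1. Among CD8 cells with any other beta segment, Trav13-1 led in 5 of 82 (6.10%, 2.01 to 13.7). Trbv1 with Trav13-1 thus made up 95 of the 180 CD8 cells with both chains assigned (52.8%, 45.2 to 60.2). The remaining 85 were spread over 75 further pairs, the largest of them Trbv16 with Trav16d-dv11 in 3 cells.

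Trbv13-1 cells rarely showed an alpha segment at all. No Trav UMI was found in 106 of 116 (91.4%, 84.7 to 95.8), against 49 of the 224 CD8 cells with another beta segment (21.9%, 16.6 to 27.9). The 10 Trbv13-1 cells with a Trav UMI held 9 different segments, led by Trav8n-2 in 2 cells. The 224 cells include 105 with Trbv1, of which 5 had no Trav UMI. Of the 119 cells with neither Trbv1 nor Trbv13-1, 75 had one (63.0%, 53.7 to 71.7). Median depth was 3538 UMIs in Trbv13-1 cells, 3345 in cells with Trbv1 and Trav13-1 and 5458 in the 119 cells with other beta segments. After thinning to 1000 UMIs a Trav UMI remained in 2.61% of Trbv13-1 cells and 30.5% of cells with other beta segments.

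The alpha constant gene Trac was present at similar levels in all of them. It stood at 299 CPM (256 to 346) in Trbv13-1 cells, 328 CPM (273 to 390) in cells with Trbv1 and Trav13-1 and 364 CPM (321 to 412) in the other cells. Summed Trav UMIs were 67.9 CPM (48.5 to 92.4) in Trbv13-1 cells and 368 CPM (325 to 416) in the other cells. Trbv13-1 cells therefore carried alpha constant RNA without a matching V symbol in the counts. The counts do not show which alpha segment they used.

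In PyMT-N, the 15 CD8 cells with both chains assigned held 15 different pairs. Among its 34 cells without a co-receptor that had both chains, Trbv3 with Trav14n-3 occurred in 4 (11.8%) and 3 other pairs in 2 cells each. In CD4 cells Trbv13-2 with Trav10 and Trbv26 with Trav12-2 occurred in 2 cells each. The tumours had 12 pairs in common, which is 8.45% of the 142 pairs of PyMT-M and 25% of the 48 pairs of PyMT-N. They include Trbv16 with Trav16d-dv11, Trbv26 with Trav12-2 and Trbv3 with Trav14n-3. Trbv1 with Trav13-1 was not among them.

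The beta-defined cells also differed in gamma V segments, which the assignment had not used. Tcrg-V3 had a UMI in 77 of 95 cells with Trbv1 and Trav13-1 (81.1%, 71.7 to 88.4). It had a UMI in 1 of 116 Trbv13-1 cells (0.862%) and 5 of 119 cells with other beta segments (4.20%). Tcrg-V7 showed the opposite pattern, in 73 of 116 Trbv13-1 cells (62.9%, 53.5 to 71.7), 1 of 95 (1.05%) and 1 of 119 (0.840%). Of the 10 Trbv1 cells in which Trav13-1 was not assigned, 5 held Tcrg-V3 and none Tcrg-V7. Thinned to 1000 UMIs the shares were 38.9% for Tcrg-V3 in the first group and 31.3% for Tcrg-V7 in the second, with 0 cells for either segment among the cells with other beta segments.

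The constant genes Tcrg-C1 and Tcrg-C3 followed the segments that lie beside them on chromosome 13, whereas Tcrg-C4 did not. Tcrg-V7 (chr13:19178024-19178492) lies upstream of Tcrg-C1 (chr13:19214103-19217024) on the plus strand, and Tcrg-V3 (chr13:19242845-19243301) upstream of Tcrg-C3 (chr13:19260884-19263528). Tcrg-C1 had a UMI in 62 of 116 Trbv13-1 cells (53.4%), 2 of 95 cells with Trbv1 and Trav13-1 (2.11%) and 12 of 119 others (10.1%). Tcrg-C3 had a UMI in 18 of the 95 (18.9%), 0 of the 116 and 1 of the 119. Tcrg-C4 lies downstream of Tcrg-V1 on the plus strand. It had a UMI in 27 of the 95 (28.4%), 21 of the 116 (18.1%) and 28 of the 119 (23.5%), against 3, 5 and 9 cells for Tcrg-V1.

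Trgv2 (chr13:19336573-19337167, minus strand), which lies upstream of Tcrg-C2 on the same strand, was read in all 3 groups. It had a UMI in 86 of 95 (90.5%), 91 of 116 (78.4%) and 53 of 119 cells (44.5%), and in 1 of 28 CD4 cells. In PyMT-N it was found in 8 of 33 CD8 cells (24.2%, 11.1 to 42.3), Tcrg-V3 in 1 and Tcrg-V7 in 0. Trdc, the delta constant gene, had 0 UMIs in the Trbv1 with Trav13-1 cells and in the Trbv13-1 cells.

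**Figure D3:**
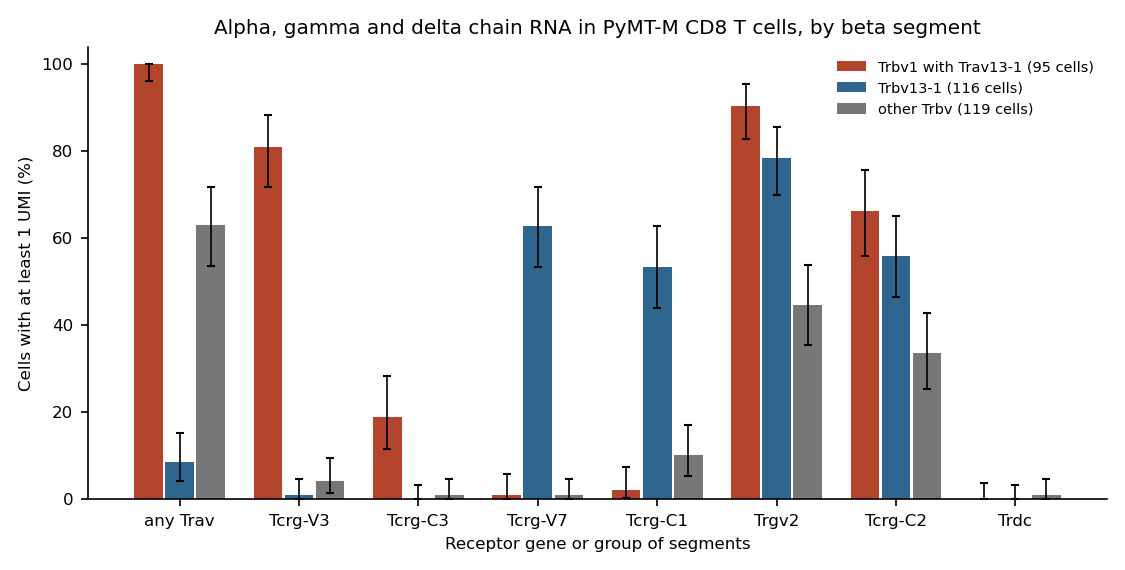
Share of PyMT-M CD8 cells (%) with at least 1 UMI of any Trav segment, of Tcrg-V3, Tcrg-V7 and Trgv2 with the constant genes beside them, and of Trdc. Bars are cells with Trbv1 and Trav13-1 (95), with Trbv13-1 (116) and with other beta segments (119), with exact 95% intervals. The first group has a Trav UMI by its definition. Tcrg-V3 and Tcrg-C3 are found mainly in the first group and Tcrg-V7 and Tcrg-C1 mainly in the second.

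No barcode of PyMT-M, kept or removed, held at least 2 UMIs of both Trbv1 and Trbv13-1, while 133 kept cells held that many of each alone. In PyMT-N 11 kept cells held that many of Trbv1 and 3 of Trbv13-1, and these numbers are too small to read the 0 cells with both.

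Cells with these 2 beta segments shared an expression pattern that set them apart from the other CD8 cells of the same library. Gzmk, a granzyme found in effector memory cells, stood at 852 CPM in cells with Trbv1 and Trav13-1, 818 CPM in Trbv13-1 cells and 35.8 CPM in the other cells. Pdcd1, the PD-1 inhibitory receptor, stood at 377 CPM, 198 CPM and 17.2 CPM. Over all features with at least 20 UMIs, 6.43% were at least 2-fold higher and 6.76% at least 2-fold lower in cells with Trbv1 and Trav13-1 than in the other cells. For Trbv13-1 cells the shares were 7.1% and 5.07%. These are sums over cells of 1 library and describe that library. Of the 5 exhaustion genes, 4 were at least 2-fold higher in each group (Pdcd1, Lag3, Tox and Tigit). Havcr2 had too few UMIs to count in either comparison, with 4, 11 and 3. The list as a whole summed to 1216, 897 and 264 CPM.

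Genes of naive and memory cells ran the other way. Ccr7, a chemokine receptor that guides T cells to lymph nodes, stood at 0, 15.3 and 57.3 CPM. Lef1 stood at 10.5, 15.3 and 61.6 CPM. Tcf7, like Lef1 a transcription factor of naive and memory T cells, stood at 26.2, 35.6 and 81.7 CPM. All 3 were at least 2-fold lower in both groups than in the other cells. Il7r, the interleukin 7 receptor, was 0.571 times the other cells' level in the first group, short of that fold, and had too few UMIs in the second.

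Cytotoxic genes were divided. Of the 6 on the list, Gzmk included, 4 were at least 2-fold higher and 1 lower in cells with Trbv1 and Trav13-1, and 1 was higher and 1 lower in Trbv13-1 cells. Gzmb was lower in both groups, at 731 and 855 CPM against 2021 CPM. Nkg7 and the chemokine gene Ccl5 were 2.79-fold and 2.65-fold higher in cells with Trbv1 and Trav13-1. In Trbv13-1 cells they were 1.83 and 1.43 times the level of the other cells, under the 2-fold threshold. Prf1, which encodes perforin, was 2.01-fold higher in the first group, on 22 and 20 UMIs, and 1.54 times in the second. Gzma was 0.867 and 1.02 times the other cells' level. The proliferation genes Mki67 and Top2a were 2.37-fold and 3.22-fold higher in Trbv13-1 cells, and 1.41 and 2.15 times in cells with Trbv1 and Trav13-1.

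Among markers of other cell types, the macrophage list had a UMI in 23 of 95, 25 of 116 and 32 of 119 cells, and summed to 78.6, 56.0 and 77.4 CPM. The natural killer list had a UMI in 27, 44 and 58 cells. Its summed level was 107, 126 and 195 CPM, mostly Eomes in the first 2 groups and Klre1 in the other cells, with Ncr1 at 0, 3 and 1 UMIs. In PyMT-N CD8 cells, Gzmk stood at 23.1 CPM (4 UMIs) and Pdcd1 at 5.79 CPM (1 UMI).

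**Figure D4:**
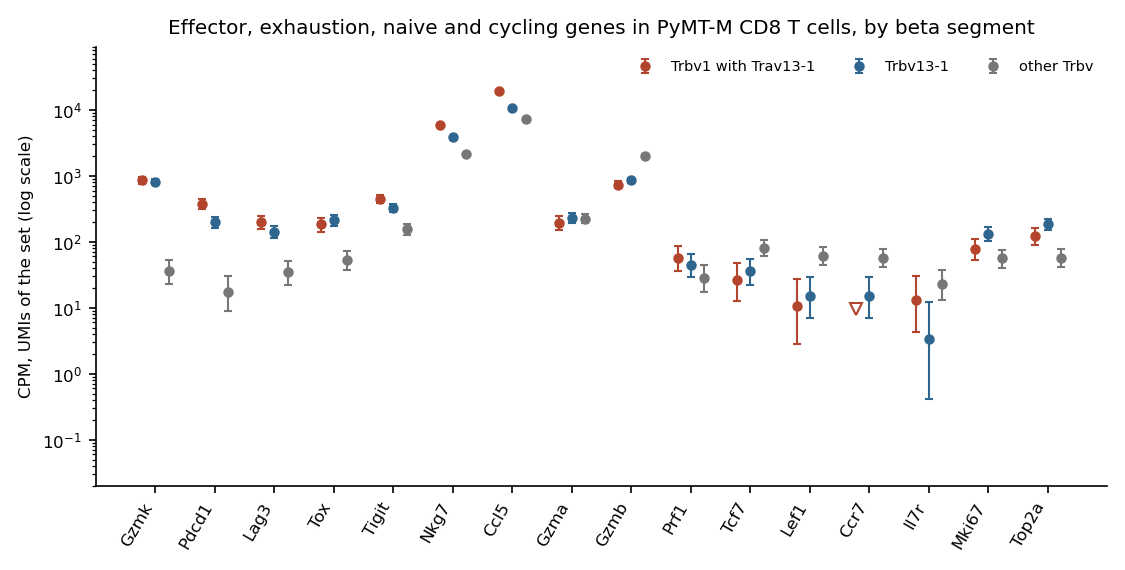
Summed level in CPM (log scale) of list genes in PyMT-M CD8 cells with Trbv1 and Trav13-1 (red), Trbv13-1 (blue) and other beta segments (grey), with exact 95% Poisson intervals. The open triangle is the upper bound for a count of 0. Gzmk and Pdcd1 lie more than 10-fold above the grey points in both groups, and Ccr7, Lef1 and Tcf7 lie below them.

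Gamma and delta segments in the gamma-delta class were read against markers of other cells first. In PyMT-M, 18 of the 19 cells carried a natural killer list UMI, 10 held an alpha-beta constant UMI and 7 a Trbv UMI. In PyMT-N these were 2, 5 and 1 of 9 cells. The PyMT-M class is therefore named here by its rule only. Its gamma segments were Tcrg-V4 in 9 cells, Trgv2 in 8, Tcrg-V1 in 6 and Tcrg-V6 in 2. Among delta segments Trdv5 and Trdv2-2 had UMIs in 3 cells each and Trdv4 in 2. Trav segments with dv in their names, which can serve as delta segments too, had UMIs in 6 of the 19 cells (27 UMIs) and in 3 of the 9 of PyMT-N (11 UMIs). Trav13-4-dv7, Trav21-dv12 and Trav15d-1-dv6d-1 led in 2 cells each in PyMT-M. Trdv5 (chr14:54148662-54149294, minus strand) overlaps Trdc (chr14:54142851-54148868, plus strand), so the reads of these 2 genes may not be fully separated.

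In the PyMT-N gamma-delta class Tcrg-V6 and Trgv2 had UMIs in 4 of the 9 cells each (16 and 18 UMIs), Tcrg-V1 in 2 and Tcrg-V5 in 1. Of the 6 cells with an assigned gamma segment, Trgv2 led in 3 and Tcrg-V6 in 2. Trdv4 had 34 UMIs in 3 cells, 2 of which also held Tcrg-V6. Over all T cells of PyMT-N, 8 held Tcrg-V6, 4 of them with Trdv4, and 1 of the 8 carried a natural killer list UMI. Il17a, the cytokine of type 17 T cells, had a UMI in 4 of these 8 and in 16 of the other 192 T cells. Cd163l1, a scavenger receptor gene known from interleukin 17-producing gamma-delta T cells, had a UMI in 7 of 8 and in 9 of 192. In PyMT-M 7 T cells held Tcrg-V6, 2 of them with Trdv4 and 2 with Il17a.

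Trdv4 (chr14:54074905-54075515, plus strand) was read mostly in cells with natural killer markers in PyMT-M. It had a UMI in 70 T cells, 66 of them without a co-receptor, and 66 of the 70 carried a natural killer list UMI. Cells with natural killer markers and no Cd3 UMI held it in 112 of 320 cases (35%, 29.8 to 40.5) in PyMT-M and 8 of 32 (25%, 11.5 to 43.4) in PyMT-N. In the same cells Trdc had a UMI in 16.2% and 18.8%, and a Trbv segment in 4 of 320 and 0 of 32. Cells rich in C1q transcripts held Trdv4 in 9 of 5109 and 0 of 699. Trdv2-2, which lies at the same locus, had a UMI in 14.7% and 12.5% of the natural killer-type cells.

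**Figure D5:**
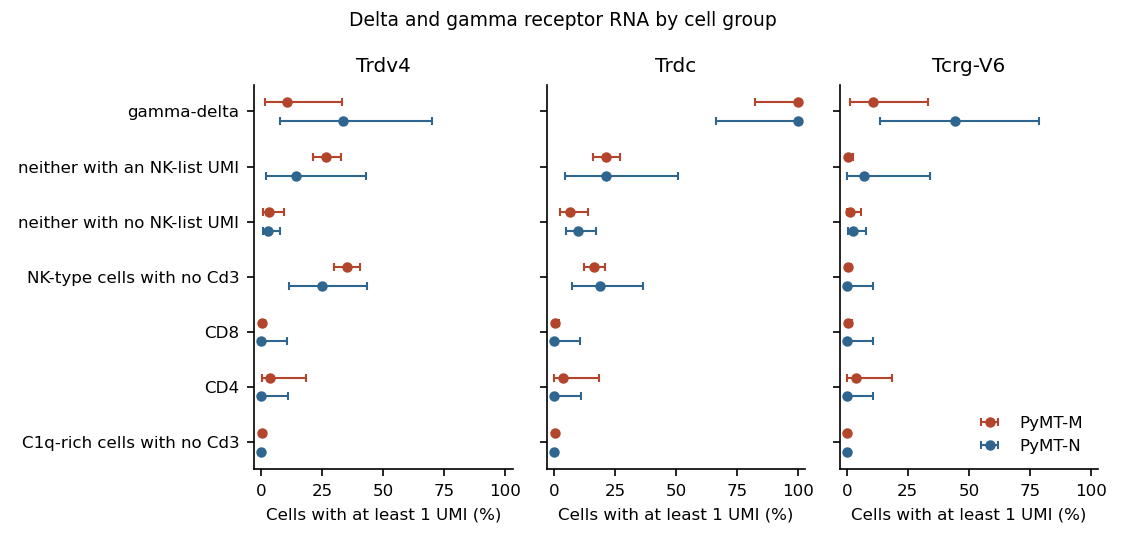
Share of cells (%) with at least 1 UMI of Trdv4, Trdc or Tcrg-V6 in 7 groups of cells, for PyMT-M (red) and PyMT-N (blue), with exact 95% intervals. Trdv4 is read in natural killer-type cells with no Cd3 UMI at 35% and 25%, whereas Tcrg-V6 is read there in 1 of 320 and 0 of 32 cells.

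The alpha segments of invariant T cells were seldom read. Trav11 and Trav11d, of the family used by invariant natural killer T cells, and the pseudogene Trav11n had 0 UMIs in the T cells of both tumours. Trav11 and Trav11d share all but 1 of their windows of 90 bases with each other, so the limit on reads of near-identical copies holds for both. Trav1, which mucosal-associated invariant T cells use, had a UMI in 3 T cells of each tumour, each with a different beta segment. J segments were hardly read: 1 T cell of each tumour had a Traj UMI, 7 of PyMT-M a Trgj UMI, and none a Trbj UMI. The Traj UMI of PyMT-N was of Traj18, the J segment of the invariant natural killer T cell alpha chain, in a cell with Trbv29 and no co-receptor.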

How the data were processed

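For each library the authors deposited raw UMI counts by gene and barcode. The file headers name software version 3.1.0. Tools listed in the submitters' processing notes are Cell Ranger and Seurat, on mm10. How reads shared between genes were counted is not stated. Depth was 43977988 UMIs over 7476 barcodes in PyMT-M and 14907736 over 5020 in PyMT-N. Barcodes with under 200 genes or over 10% mitochondrial UMIs were removed (119 and 26), then the highest Scrublet scores at 0.8% per 1000 barcodes (440 and 201), since the automatic threshold marked 0.

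The members and gene lists were chosen with earlier results of these data known. Segments named were those leading in at least 5% of a class with 20 or more assigned cells, up to 10 per class that differed most between tumours among those with 10 or more assigned cells, and those with 10 or more cells in 1 tumour and 0 in the other. Segments of a pair held by 3 or more cells, Trav1, Trav11 and all gamma and delta symbols were also named. Trav10, Trav8n-2, Traj18 and the Trav segments with dv in their names in the gamma-delta class fall outside this rule and were chosen after their values were seen. One gene of the naive and memory list is not reported here. Shares have exact Clopper-Pearson intervals, sums exact Poisson intervals and ratios conditional binomial intervals. Ratios needed 20 UMIs over the groups compared. No test between tumours was made, as each line has 1 library. Assignment and intervals were tested on simulated data. Alternatives changed the cell filters, the Cd3, C1q, neutrophil and Trdc limits, the UMIs needed for a segment, ties, depth, scaling and the minimum count. One more, leaving out cells with a natural killer list UMI, was chosen after seeing the data. Python 3.11.15, numpy 2.4.6, scipy 1.17.1, pandas 2.3.3, scanpy 1.11.5 and matplotlib 3.10.9 were used.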

Additional observations from a re-analysis of the deposited data

Results flagged for a closer look

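Trdv4 RNA appeared in cells outside the T cell rule. Among natural killer-type cells with no Cd3 UMI, 35% in PyMT-M and 25% in PyMT-N held a Trdv4 UMI. Among cells rich in C1q transcripts with no Cd3 UMI it was found in 0.176% and 0.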

How the results depend on the processing

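In all, 41 values were recomputed under 12 alternatives. Of the 287 values this gave, 261 stayed within the interval of the reported share or within 1.5 times the reported count, and 26 did not. Thinning to 1000 UMIs, which leaves fewer UMIs per cell, lowered the CD8 share with a Trbv UMI to 73.4% (PyMT-M) and 45.5% (PyMT-N), and with a Trav UMI to 29.4% and 18.2%. With 2 UMIs needed for the top segment, Trbv1 with Trav13-1 made up 61.3% of paired PyMT-M CD8 cells and PyMT-N CD8 cells held 4 distinct pairs. Tcrg-V3 was then read in 48.5% of Trbv1 cells and Tcrg-V7 in 46.4% of Trbv13-1 cells. With 1 UMI enough for a second segment, 14.3% of the PyMT-M CD8 cells with a Trbv UMI had a second Trbv segment. A minimum of 5 UMIs, under which more segments are compared, gave 8 of 48 with a PyMT-N CD8 level at least 2 times that of PyMT-M, where 10.4% of all 9638 features passed. Toward PyMT-M it gave 9 of 48, where 14.0% of all features passed. In CD4 cells it gave 9 of 23 toward PyMT-M and 6 of 23 toward PyMT-N, where 18.0% and 12.2% of all 5121 features passed.

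Without cells that carry a natural killer list UMI, an alternative chosen after seeing the data, PyMT-M kept 341 T cells, 219 CD8 cells, 1 gamma-delta cell and 38 distinct CD8 pairs. Trbv1 with Trav13-1 then made up 63.0% of paired CD8 cells. Of all CD8 cells with a Trav segment at 2 or more UMIs, paired or not, 4.71% had a second one. The cause of these 2 shifts was not tested. Trbv13-1 and Trbv1 each led in 35.1% of assigned PyMT-M CD8 cells, and 93.1% of Trbv13-1 cells had no Trav UMI. No paired analysis was possible because each line has a single library. The small numbers of CD4, gamma-delta and PyMT-N CD8 cells limit what their counts can show.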
